A study of Mus musculus with 32 samples.

Results

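The genes described here encode receptors for glutamate, GABA and glycine, the main fast transmitters of the brain. They were taken by symbol from 3 deposited tables, as all genes on chromosomes 1 to 19 named Gria, Grik, Grin, Grid, Grm, Gabr, Gabbr, Glra or Glrb, with at least 20 informative reads in a brain region. Of 41 symbols that matched, 39 met this read minimum, out of 17851 autosomal genes with any read. In embryonic brain 36 of the 39 were above the minimum, in preoptic area 38 and in prefrontal cortex 36. Just outside lay Gabrr1 with 7 reads in embryonic brain and Grm6 with 17. Just inside lay Glra3 with 52 reads in preoptic area. A symbol starting with Grid can also name a scaffold protein and not a receptor, and 1 such gene, with 39 reads in embryonic brain, is counted among the 39. Gria3, Gabra3, Gabre, Gabrq, Glra2 and Glra4 lie on the X chromosome and were outside the rule.

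Allele-specific RNA sequencing was done on brains of F1 mice whose parents were an inbred CAST/EiJ and an inbred C57BL/6J animal (B6 below), so that every autosomal gene carried 1 allele of each strain. F1i mice had a CAST mother and a B6 father, and F1r mice a B6 mother and a CAST father. There were 2 pools of whole brain at embryonic day 15 (E15), 1 of each cross with 4 to 5 individuals, and 4 pools each of adult preoptic area (POA) and medial prefrontal cortex (PFC), a male and a female pool of each cross with 8 to 10 mice at 5 weeks of age. The sex of the embryos was not labelled, and whether the same mice gave POA and PFC is not labelled. Pure CAST and pure B6 embryos were sequenced as well. Reads count here only where they cover a base that differs between the strains (a SNP), so a gene's reads depend on its number of SNPs, and genes are compared with each other only per SNP.

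Glutamate opens AMPA, kainate and NMDA receptors, ion channels that excite the cell, and acts on metabotropic receptors that signal through G proteins. GABA opens GABA-A receptors, chloride channels built from several subunits that mostly inhibit mature neurons, and acts on the metabotropic GABA-B receptor, a pair of Gabbr1 and Gabbr2. Glycine opens a chloride channel of alpha subunits and Glrb. Subunit choice sets conductance, kinetics and location, and it is known to change as the brain matures: embryonic NMDA receptors hold much Grin2b and Grin2d, and adult ones more Grin2a.

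The allele results below are shown in most detail for 3 genes, and 2 SNPs of each are shown as examples of what a read was scored on. Each sequence is 29 bases of the mm9 reference on the transcript's strand, 5′ to 3′, with the SNP in capitals at position 15, counted from 1 at the 5′ end. All 6 lie in coding sequence. The change is given as the reference (B6) base, the position and the CAST base. Gabra2 lies at chr5:71352296-71487088 on the minus strand, Gria1 at chr11:56824889-57143746 on the plus strand and Grik5 at chr7:25794872-25857388 on the minus strand.
Gabra2, T15C, chr5:71353261-71353289: gctgttgccaactaTgccccgaatctttc
Gabra2, G15A, chr5:71353195-71353223: acgacgccagaaccGaacaagaagccaga
Gria1, A15G, chr11:56999321-56999349: tacgccatctttggAttttatgaacgaag
Gria1, G15A, chr11:57102792-57102820: aagtctgcagaaccGtctgtgtttgttcg
Grik5, C15T, chr7:25800446-25800474: acagaggagggaatCgcccgcgtcctcaa
Grik5, C15G, chr7:25800440-25800468: gagggaatcgcccgCgtcctcaactcccg
The Gabra2 pair lay in the same direction at both SNPs, the Gria1 pair lay on the same side with unequal shares, and the Grik5 pair gave unequal shares although it lies within the length of a read, as given with the allele results.

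The informative depth was 11204892 and 11588747 reads in the E15 pools, 3505391 to 7494868 for POA and 4876706 to 7328981 for PFC. Marker genes, 6 per list, matched the labelled tissues. Levels are given in RPM, informative reads per 1000000 of the pool after TMM scaling. Summed markers of prefrontal cortex reached 3276 to 4512 RPM in PFC (5 listed), 16.0 to 18.4 in POA (3 listed) and 353 to 429 in E15 (5 listed). Markers of the preoptic area and hypothalamus reached 181 to 327 in POA (4 listed) and 15.9 to 36.2 in E15 (5 listed), and none was listed in PFC. Those of embryonic brain reached 1401 to 1628 in E15 (5 listed) against 21.9 to 42.1 in the adult pools (2 listed). Markers of other cells differed too. Oligodendrocyte genes summed to 6856 to 7572 in POA (4 listed), 1427 to 5040 in PFC (4) and 76.3 to 85.7 in E15 (3). Neuronal genes summed to 2053 to 2430 (3), 3639 to 4919 (4) and 1831 to 2760 (4) in the same order, striatal genes to 548 to 707 (4), 154 to 201 (4) and 135 to 147 (5), and astrocyte genes to 1484 to 1643, 1246 to 1653 and 660 to 691 (6 in each). Microglial genes summed to 277 to 312, 429 to 495 and 99.6 to 127 (5 in each), and endothelial genes to 173 to 180, 167 to 286 and 328 to 347 (6 in each). Their part in the differences below was not tested. In pooled tissue, fewer cells of a type and less RNA per cell cannot be told apart. The labels give the pools as separate samples, and p-values measure the spread between these pools. Exceptions for E15 are stated below.

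Among the receptors, 28 of 36 tested members differed between POA and PFC at an adjusted p under 0.05 (edgeR quasi-likelihood test, Benjamini-Hochberg over all genes), 11 with more reads in POA and 17 with more in PFC. Across all genes 61.7% were called, 30.5% toward POA and 31.2% toward PFC. The median log2 difference of POA minus PFC was -0.24 over the members and -0.0036 over all genes. The shift toward PFC was largest for Grm2, Grin2b, Gabra5 and Grin2a, and the shift toward POA for Grin2d and Gabrg1. No p-value of the list itself was computed, since its members were chosen as a family.

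**Figure D1:**
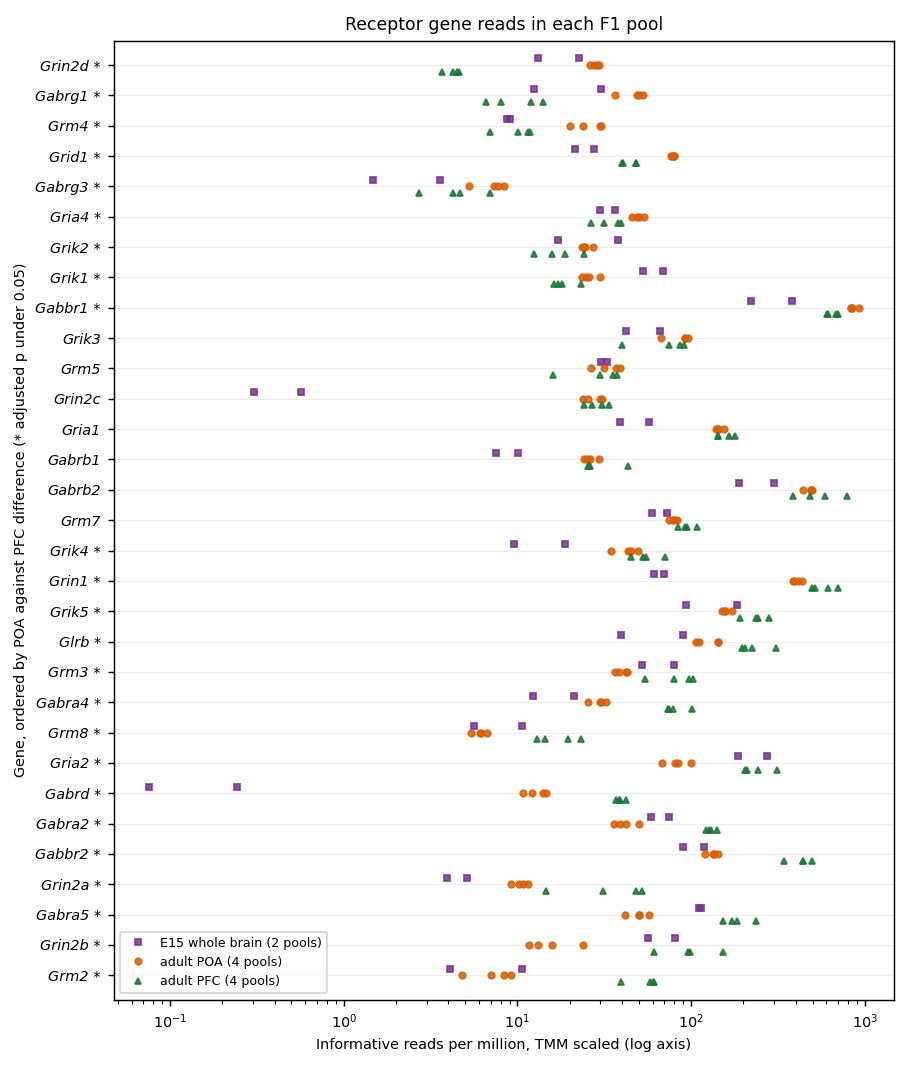
Levels in RPM, scaled by TMM, on a log axis for 31 receptor genes tested in both adult regions, 1 marker per pool (2 E15, 4 POA and 4 PFC pools), ordered by the POA to PFC difference with an asterisk at an adjusted p under 0.05. Grin2d and Gabrg1 at the top have POA pools to the right of all PFC pools, and Grm2 and Grin2b at the bottom have them to the left.

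NMDA receptor subunits moved in both directions. Grin2b, a glutamate-binding subunit of slow channels, had 23.7, 15.7, 13.1 and 11.7 RPM in the POA pools, in the order F1i female, F1i male, F1r female and F1r male used throughout. In PFC, Grin2b had 152, 98.7, 61.2 and 95.3. The groups did not overlap, and the log2 difference of POA minus PFC was -2.66 ± 0.20 (SE; adjusted p 2e-07). Grin2a, the subunit that rises with maturation, had 11.5, 9.21, 10.2 and 10.7 in POA and 47.9, 31.1, 14.6 and 52.1 in PFC, a difference of -1.77 ± 0.32. The F1r female PFC pool was the lowest for both genes. Grin2d, a subunit of very slow channels typical of diencephalon and brainstem, went the other way. It had 28.8, 27.6, 29.4 and 26.0 RPM in POA and 4.50, 4.24, 3.66 and 4.61 in PFC, a log2 difference of 2.71 ± 0.17 (adjusted p 5.2e-08). The Grin2d difference was 2.29 on the SNPs listed for both POA and PFC and 3.58 without its deepest SNP. The obligatory subunit Grin1 was lower in POA by a smaller step (-0.53 ± 0.11), and 4 of its SNPs also lie under the antisense gene E130003G02Rik, from which its reads cannot be told apart without strand. Grin2c did not pass the test, with 23.9 to 30.6 in POA and 24.05 to 33.9 in PFC.

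Of the AMPA receptor subunits, Gria2, which blocks calcium entry through the channel, was lower in POA. Its POA pools had 67.9, 84.3, 80.2 and 99.2 RPM and its PFC pools 243, 208, 203 and 311. The log2 difference was -1.56 ± 0.13 (adjusted p 5.8e-07) and the groups did not overlap. Gria4, a fast subunit found in many interneurons and in the brainstem, was higher in POA with 45.6 to 53.6 against 26.4 to 39.4 (0.55 ± 0.14). Gria1, a subunit of plastic cortical synapses, had 138 to 155 in POA and 143 to 179 in PFC and did not pass the test.

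Kainate receptor subunits differed little. Grik5, a subunit that forms channels only with other kainate subunits, was lower in POA (150 to 171 against 191 to 280, -0.58 ± 0.12), as was its relative Grik4 (34.6 to 49.2 against 45.0 to 70.8, -0.39 ± 0.14). The pore-forming subunits Grik1 and Grik2 were higher in POA by 0.48 ± 0.16 and 0.49 ± 0.19, and Grik3 did not pass. Several of these calls rested on single pools. Grik1 was no longer called without the PFC F1i female, POA F1i female or POA F1r male pool (adjusted p 0.0536 to 0.0823), Grik2 without any of 5 pools (0.0754 to 0.159, all but the PFC F1i female, PFC F1r male and POA F1r male) and Grik4 without any of 5 pools (0.062 to 0.123, all but the PFC F1i female, PFC F1r male and POA F1i male). Grik2 was 0.35 (adjusted p 0.147) on SNPs listed for both POA and PFC.

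The delta receptor Grid1, a channel-like protein that binds cerebellins and organises synapses, was higher in POA. It had 76.4, 79.9, 77.4 and 79.2 RPM in POA and 40.0, 48.0, 40.6 and 48.4 in PFC (0.82 ± 0.11, adjusted p 3.2e-05).

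Metabotropic glutamate receptors split by member. Grm2, a Gi-coupled autoreceptor of cortical and thalamic terminals, showed the lowest POA to PFC ratio of all members. Its POA pools had 9.20, 7.04, 8.34 and 4.77 RPM and its PFC pools 60.7, 39.6, 57.7 and 60.9. The difference was -2.89 ± 0.19 (adjusted p 7e-08), -2.03 without the deepest SNP, and the PFC mean was 7.46 times the POA mean. Grm3, the Gi-coupled relative found also in astrocytes, was lower in POA (36.2 to 42.5 against 54.5 to 102, -1.06 ± 0.17), and so was the presynaptic Grm8 (5.42 to 6.68 against 13.0 to 23.1, -1.53 ± 0.22). The size for Grm8 depended on its SNPs, at -0.89 on those listed for both POA and PFC and -2.50 without the deepest. Grm4, a presynaptic receptor, was higher by 1.36 ± 0.16 over all SNPs. The Grm4 difference was 0.36 (adjusted p 0.0848) on the SNPs listed for both POA and PFC and 2.12 without the deepest SNP. Grm5 and Grm7 did not pass, Grm7 with 74.8 to 82.7 in POA and 83.5 to 108 in PFC at an adjusted p of 0.0548.

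GABA-A receptor subunits were mostly lower in POA, 6 of 11 tested, with 2 higher and 3 that did not pass. Alpha subunits, which can form the benzodiazepine site with a gamma subunit, were among those with fewer reads in POA. Gabra5, an extrasynaptic subunit best known from hippocampus, had 50.3, 50.1, 41.4 and 56.99 in POA and 171, 182, 236 and 152 in PFC (-1.91 ± 0.15, adjusted p 4.2e-07). Gabra2, found at axon initial segments, had 36.0, 42.0, 39.1 and 50.1 against 130, 126, 121 and 141 (-1.65 ± 0.11, adjusted p 9.5e-08). For Gabra4 the difference was -1.47 ± 0.14. Gabrd, which joins Gabra4 in receptors outside synapses, had 14.5, 12.2, 14.1 and 10.7 in POA and 38.6, 38.9, 42.1 and 37.1 in PFC (-1.60 ± 0.14). The beta subunits Gabrb1 and Gabrb2 did not pass. The gamma subunits Gabrg1 and Gabrg3 went the other way. Gabrg1, a subunit of low abundance in cortex, had 36.4, 49.8, 48.6 and 52.5 in POA and 11.9, 6.59, 8.08 and 14.1 in PFC, a difference of 2.17 ± 0.20 (adjusted p 1.8e-06). Gabrg3 was called at 0.64 ± 0.25, but not without any of 6 pools (adjusted p 0.0544 to 0.202, all but the PFC F1r male and POA F1i male) and not by DESeq2 (0.102).

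The subunits of the GABA-B receptor parted. Gabbr1, which binds GABA, had 829, 840, 827 and 924 RPM in POA and 609, 614, 704 and 680 in PFC (0.39 ± 0.09, adjusted p 0.002). Gabbr2, which couples to the G protein, had 144, 135, 133 and 121 in POA and 440, 493, 344 and 443 in PFC (-1.69 ± 0.11, adjusted p 7.2e-08). Gabbr1 had the most reads per SNP of the members in POA, at 71.3 RPM, against 9.51 for Gabbr2. In PFC it followed Grin1 (64.7) at 54.3, with Gabbr2 at 35.8. Of the SNPs placed on the genome, 9 of 12 in Gabbr1 lay in the 3′ UTR and 9 of 11 in Gabbr2 in coding sequence. The part of SNP position in reads per SNP was not tested. Glrb, the anchoring beta subunit of the glycine receptor, was lower in POA (107 to 143 against 196 to 308, -0.90 ± 0.12). Its alpha partners Glra1 and Glra3 had 5.01 to 7.07 and 1.19 to 3.25 RPM in POA and were not listed in PFC, so no fold can be given.

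Of the 28 calls between the adult regions, 23 held in every alternative run. Grik1, Grik2, Grik4, Gabrg3 and Grm4 did not, as given above.

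Genes that work with these receptors, taken from lists of known partners, were counted beside the 61.7% of all genes called between the regions. Of 6 tested AMPA receptor auxiliary subunits, 4 were lower in POA and 1 higher, among them Cnih3 (-3.87 ± 0.13), Cacng3 (-1.49 ± 0.16) and Cacng5 (1.11 ± 0.13). Of 11 excitatory scaffold genes 6 were lower and 1 higher, with all 3 Homer genes, which tether Gq-coupled Grm receptors, lower (Homer1 -2.95 ± 0.17). Of 15 genes of transmitter synthesis and transport 9 were higher in POA and 3 lower, with the GABA-making enzymes Gad1 at 1.29 ± 0.10 and Gad2 at 2.51 ± 0.11 and the vesicular GABA transporter Slc32a1 at 2.5 ± 0.14. Inhibitory scaffolds went both ways, 3 higher and 2 lower of 5. The GABA-B auxiliary subunits Kctd8 and Kctd12 were higher (0.74 ± 0.19 and 0.40 ± 0.11) and Kctd16 was lower (-2.67 ± 0.39).

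Ratios within a pool do not depend on depth. The log2 ratio of Grin2a to Grin2b reads, on SNPs of all 3 tables, was -1.56, -0.95, -0.80 and -0.29 in POA and -1.57, -1.47, -1.73 and -0.83 in PFC. These groups overlapped, and the difference of 0.50 had an exact two-sided permutation p of 0.2, where 4 pools against 4 (70 regroupings) can give no less than 0.0286. Both E15 pools were lower still, at -3.98 and -3.02. Since the 2 genes of a ratio have different numbers of SNPs, the sign of a ratio is not a ratio of molecules, and only its change between tissues can be read.

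**Figure D2:**
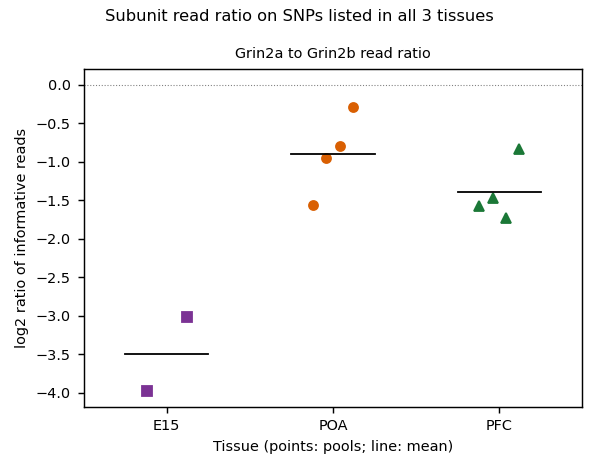
The log2 ratio of informative reads for Grin2a to Grin2b, 1 point per pool and a line at the mean of each tissue, on SNPs listed in all 3 tables. Both E15 pools lie below all adult pools, and the POA and PFC pools overlap.

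In whole brain at E15 most receptor genes had fewer reads than in the adult regions. Against POA, 30 of 36 members were called, 7 higher in E15 and 23 lower. Against PFC, 26 were called, 3 higher and 23 lower. Over all genes 68.6% were called against POA (35.6% higher in E15 and 33.0% lower) and 67.6% against PFC (34.8% and 32.8%). The median log2 difference was -0.72 against POA and -0.85 against PFC over the members, and 0.054 and 0.039 over all genes. Both comparisons share the 2 E15 pools, which differed from each other: Gabbr1 had 221 in F1i and 379 in F1r. Age and the part of the brain dissected cannot be told apart here, since E15 is the whole brain.

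**Figure D3:**
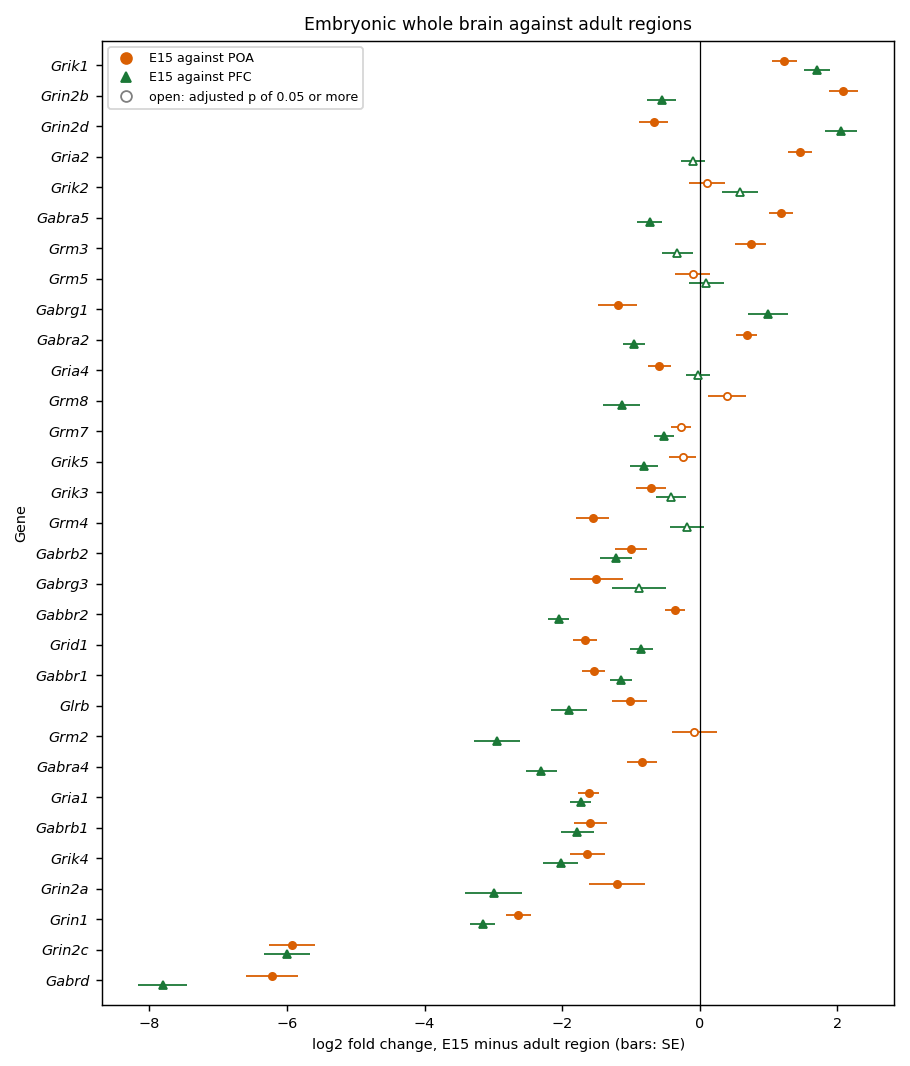
Fitted log2 fold change of E15 against each adult region for 31 receptor genes, with bars of 1 SE and open markers at an adjusted p of 0.05 or more (edgeR, 10 pools). Gabrd, Grin2c and Grin1 are among the lowest, and Grik1 lies above 0 against both regions.

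Among the genes lowest in E15 against both adult regions were Gabrd, Grin2c and Grin1. Gabrd and Grin2c, subunits of mature cerebellar granule cells and other adult neurons, had very few reads. Gabrd had 4 reads in both E15 pools together, or 0.157 RPM (exact Poisson 95% interval 0.0428 to 0.402, counting error only), against 41 reads in POA and 215 in PFC at the same SNP. Grin2c had 11 reads, or 0.432 RPM (0.215 to 0.772), against 106 and 172 at the same SNP. On shared SNPs the log2 differences from POA and PFC were -3.24 and -5.80 for Gabrd and -3.28 and -4.11 for Grin2c. Over all SNPs the fits gave -6.22 and -7.81, and -5.93 and -6.00, but these count SNPs that the E15 table does not list. Without E15 F1i the Gabrd values were -7.08 and -8.67. Grin1 had 70.0 and 60.8 RPM in E15 against 384 to 434 and 497 to 702 (-2.63 ± 0.18 and -3.16 ± 0.18).

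Lower in E15 against both regions were also Gria1 (57 and 39, -1.61 and -1.73), Gabrb1 (10.1 and 7.50, -1.59 and -1.78), Grik4 (18.7 and 9.55, -1.64 and -2.02), Gabbr1 (-1.54 and -1.14), Grid1 (21.5 and 27.7, -1.67 and -0.85) and Gabrb2 (-1.0 and -1.22), each called in every alternative run. Gabra4, Glrb, Gabbr2 and Grin2a were called lower against both, but their POA calls were less stable. Gabra4 was -0.84 against POA, -0.49 (adjusted p 0.0775) without E15 F1i and -1.26 without E15 F1r. Glrb was -1.02, -0.55 (0.0676) without E15 F1i and -1.61 without E15 F1r. Grin2a was -1.20, -0.94 (0.137) without E15 F1i and -0.70 (0.144) on shared SNPs. Gabbr2 was -0.37, and -0.26 to -0.37 (0.0576 to 0.208) without E15 F1r, POA F1i female, POA F1r female or POA F1r male. Against PFC these 4 were at -2.30, -1.90, -2.05 and -3.00 for Gabra4, Glrb, Gabbr2 and Grin2a, with Glrb at -2.50 without E15 F1r.

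A small set had more reads in the embryo. Grik1, a kainate subunit, was the 1 member called higher in E15 against both regions, with 52.9 and 68.6 RPM against 23.4 to 30.0 in POA and 16.1 to 23.3 in PFC (1.23 ± 0.19 and 1.70 ± 0.19). Grin2b had 80.6 and 56.4 in E15, above POA (2.09 ± 0.22) and below PFC (-0.55 ± 0.22). Its call against PFC was lost without either E15 pool, the PFC F1i female or the PFC F1r male pool (adjusted p 0.0605 to 0.166). Gria2 had 186 and 272, above POA (1.45 ± 0.17) beside 203 to 311 in PFC (-0.10 ± 0.18, not called). Gabra5 had 111 and 113 and Gabra2 59.1 and 74.7, both between the adult regions: above POA by 1.18 ± 0.17 and 0.68 ± 0.15 and below PFC by -0.73 ± 0.18 and -0.96 ± 0.16. Grm3 was 0.74 above POA, 0.27 (0.364) without E15 F1r and 1.13 without E15 F1i.

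Grin2d was higher in E15 than in PFC, with 22.7 and 13.2 RPM against 3.66 to 4.61 (2.05 ± 0.23, and 2.19 on shared SNPs). Against POA its direction depended on the SNPs counted, at -0.67 over all, 0.20 (adjusted p 0.532) on those of all 3 tables and -1.59 without the deepest. Without E15 F1r it was -0.33 (0.214), and without E15 F1i -1.06. Gabrg1 was 0.99 above PFC, but 0.39 (0.308) without E15 F1r, whose 30.4 RPM stood against 12.4 in F1i. Against POA it was -1.19 ± 0.28, -0.72 without E15 F1i and -1.79 without E15 F1r. Grm2 had 10.6 and 4.09 in E15, far under PFC (-2.95 ± 0.34, -3.76 without E15 F1i and -2.34 without E15 F1r) and not called against POA (-0.08 ± 0.33). Grm4 was -1.56 against POA over all SNPs and -0.60 (0.0706) on shared ones. Also called lower were Gabrg3, Grik3 and Gria4 against POA (-1.51, -0.71 and -0.59) and Grm8, Grik5 and Grm7 against PFC (-1.14, -0.81 and -0.52). Of these, Gabrg3 was lost without E15 F1i (-0.94, adjusted p 0.0591), Grik3 without E15 F1r (-0.60, 0.0779) and Grik5 without E15 F1r (-0.41, 0.0738). Without the other E15 pool, Gabrg3 was at -2.29 and Grik5 at -1.29. Grm5 was not called in either comparison, with 32.7 and 30.2 in E15, 26.5 to 39.1 in POA and 16.0 to 37.6 in PFC.

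Partner genes differed between E15 and adult in both directions. Against POA and PFC, the kainate receptor partner Neto2 and the transmembrane AMPA regulator Cacng4 were higher in E15 (Neto2 1.66 and 2.09, Cacng4 2.67 and 3.04) and Neto1 and Cacng3 lower (Neto1 -2.13 and -1.98, Cacng3 -1.87 and -3.35). Cbln1 and Cbln4, ligands of delta receptors, were higher in E15 (2.02 and 2.60, and 1.24 and 2.38). The scaffold Dlg4 was lower (-1.85 and -1.78). Of 15 synthesis and transport genes 2 were higher and 12 lower against POA, and 2 were higher and 8 lower against PFC, where all genes had 35.6% higher and 33.0% lower against POA and 34.8% and 32.8% against PFC.

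Sex and cross changed no receptor gene detectably. None of 36 members, and 0 of 12108 genes (0.0%), were called between female and male pools by edgeR, with 3 members and 621 genes at an unadjusted p under 0.05, and DESeq2 called 0. The smallest p among members was for Grm4 (0.46 ± 0.15, female minus male, adjusted p 0.909). Between F1i and F1r, 1 gene (0.00826%) and no member was called, with 3 members at an unadjusted p under 0.05. Grin2b was nearest at 0.67 ± 0.19, F1i minus F1r (adjusted p 0.97). With 4 pools per sex and per cross, no sex or cross difference of a receptor gene was detectable at this depth.

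In F1 brain both alleles meet the same cellular environment, so an uneven share of reads compares the alleles within the same cells. Over all genes the median CAST share of a pool was 47.3% to 49.4%, just under even. Of all informative reads, CAST made up from 44.6% (PFC F1r male) to 51.5% (PFC F1i female). Calls were made against an even share of 50%, and not against these values. Gabra2 stood out with more CAST than B6 reads in all 10 pools. Its CAST share was 69.8% and 70.5% in E15, 72.2%, 71.6%, 59.9% and 70.5% in POA and 74.7%, 73.3%, 63.2% and 69.4% in PFC. The F1r female pool was the lowest in both adult regions. The log2 ratio of CAST to B6 was 1.23 ± 0.11 in E15 (adjusted p 0.0025), 1.11 ± 0.12 in POA (2.7e-06) and 1.24 ± 0.08 in PFC (2.7e-10), and the call held in every alternative run in each tissue. All 5 SNPs of Gabra2, in the 5′ UTR, the coding sequence and the 3′ UTR, leaned to CAST in every tissue, from 62.5% to 77.4%. The T15C SNP printed above had 71.2%, 62.5% and 71.1% CAST in E15, POA and PFC, and the G15A SNP 69.2%, 68.3% and 67.0%.

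Counted over the set, 13 of 37 members were called for a strain bias in POA (3 toward CAST and 10 toward B6), 12 of 36 in PFC (4 and 8) and 5 of 35 in E15 (2 and 3). The shares over all genes were 28.8%, 36.0% and 10.7%. By direction they were 11.7% to CAST and 17.1% to B6 in POA, 11.7% and 24.3% in PFC, and 3.57% and 7.17% in E15. The members' shares of calls, 35.1%, 33.3% and 14.3%, lay near these. DESeq2 called 4, 7 and 2 members, among them Gabra2 in all 3 tissues, Gabbr1 and Grik5 in POA and PFC, Gabrb2 in POA and Gabra5, Gria1 and Grik4 in PFC. Only Gabra2 in all 3 tissues, Gabbr1 and Grik5 in POA and Gria1 and Grik4 in PFC kept their call in every alternative run.

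**Figure D4:**
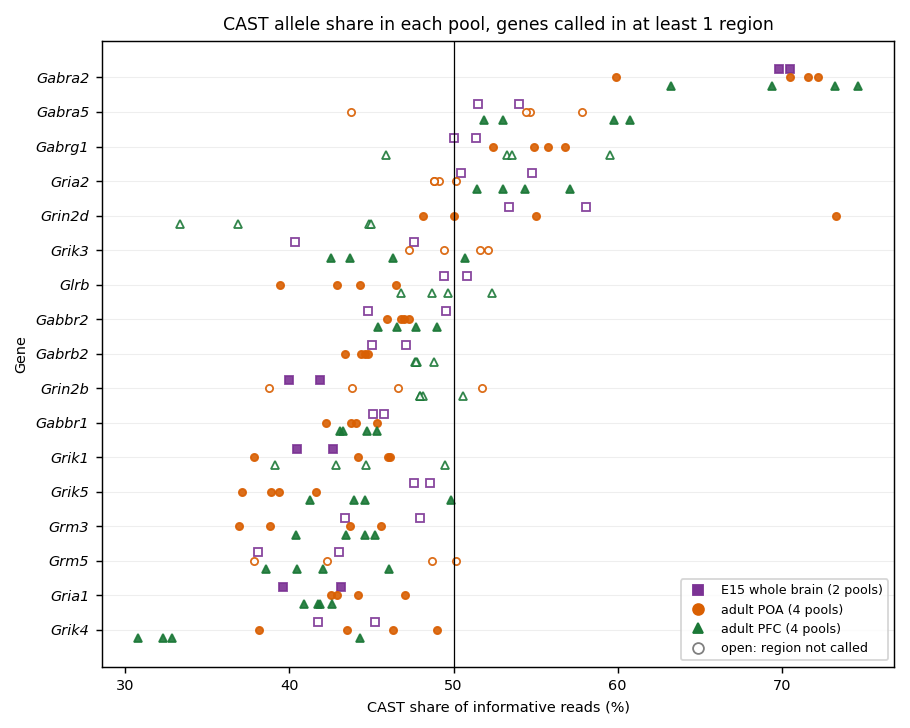
CAST share of informative reads in each of the 10 pools for 17 receptor genes called for a strain bias in at least 1 tissue, ordered by share, with open markers where the gene was not called in that tissue. Gabra2 lies at 59.9% or more in every pool, and Grik4 is lowest in PFC.

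Gabbr1, at chr17:37182911-37212012 on the plus strand, leaned to B6 by a small and even amount. Its CAST share was 45.8% and 45.1% in E15, 42.2%, 43.8%, 44.1% and 45.4% in POA and 45.3%, 43.1%, 44.7% and 43.3% in PFC, below 50% in all 10 pools. The log2 ratio was -0.36 ± 0.03 in POA (adjusted p 2.2e-07) and -0.34 ± 0.05 in PFC (7.7e-06), and the gene was not called in E15. On the deepest SNP alone the PFC value was -0.15 (adjusted p 0.122) and the POA value -0.77. Gabbr2 leaned the same way by less, at -0.19 ± 0.06 in POA and -0.16 ± 0.05 in PFC, turned to 0.073 in POA on the deepest SNP alone, and was not called without any single POA pool (adjusted p 0.0717 to 0.158) or without the PFC F1i male or F1r male pool (0.0774 to 0.107).

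Gria1 leaned to B6 in all 3 tissues. Its CAST share was 43.1% and 39.6% in E15, 42.5%, 42.9%, 44.2% and 47.1% in POA and 41.7%, 40.9%, 41.8% and 42.6% in PFC. The log2 ratio was -0.48 ± 0.07 in PFC (adjusted p 8.8e-06), -0.35 ± 0.06 in POA (0.00024) and -0.50 ± 0.12 in E15 (0.046). The bias was unequal along the transcript. The A15G SNP had 21.0% CAST in E15, 41.6% in POA and 29.9% in PFC, and the G15A SNP nearer the 3′ end 45.7%, 46.0% and 43.4%. On the deepest SNP alone the E15 value turned to 0.062 and the POA value was -0.22 (adjusted p 0.161). The E15 call was also lost by DESeq2, on SNPs at least 36 bases apart, without the deepest SNP and with offsets at the genome-wide CAST share (adjusted p 0.0587 to 0.345).

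Of the kainate subunits, Grik1, Grik3, Grik4 and Grik5 were called toward B6 in at least 1 tissue. Grik2 was called in none, with a mean CAST share of 46.7% in E15, 52.7% in POA and 52.2% in PFC. Grik4, at chr9:42326218-42752576 on the minus strand, had a CAST share of 32.8%, 30.8%, 44.3% and 32.3% in PFC, with the F1r female pool apart, and 46.3%, 38.1%, 43.5% and 49.0% in POA. The log2 ratio was -0.85 ± 0.12 in PFC (adjusted p 7.3e-06; -1.51 on the deepest SNP alone) and -0.33 ± 0.11 in POA (0.033), where it was not called without the F1i male or F1r female pool (0.188 to 0.371). Grik5 had 38.9%, 39.4%, 41.6% and 37.1% in POA, 44.6%, 43.9%, 49.8% and 41.3% in PFC and 48.5% and 47.6% in E15. Its log2 ratio was -0.62 ± 0.06 in POA (7.5e-07) and -0.28 ± 0.07 in PFC (0.003), and -0.17 (0.0878) in PFC without the F1r male pool. The 2 Grik5 SNPs printed above lie 6 bases apart, within the length of a read, yet the C15T SNP had 46.7%, 35.4% and 37.9% CAST in E15, POA and PFC and the C15G SNP 60.4%, 38.1% and 51.3%. On the deepest SNP alone the PFC value turned to 0.081. Grik1 was called toward B6 in POA (-0.41 ± 0.13) and E15 (-0.49 ± 0.11), and in POA not without the F1i female, F1r female or F1r male pool (0.0606 to 0.365). Neither Grik1 call was made by DESeq2, on SNPs at least 36 bases apart, with offsets at the genome-wide CAST share or on the deepest SNP alone, at -0.49 to -0.091 in E15 (adjusted p 0.181 to 0.812) and -0.39 to -0.18 in POA (0.0577 to 0.554). Grik3 was called in PFC alone (-0.25 ± 0.10), and not without the F1i female, F1i male or F1r male pool (0.101 to 0.537), and it turned to 0.038 on the deepest SNP alone.

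**Figure D5:**
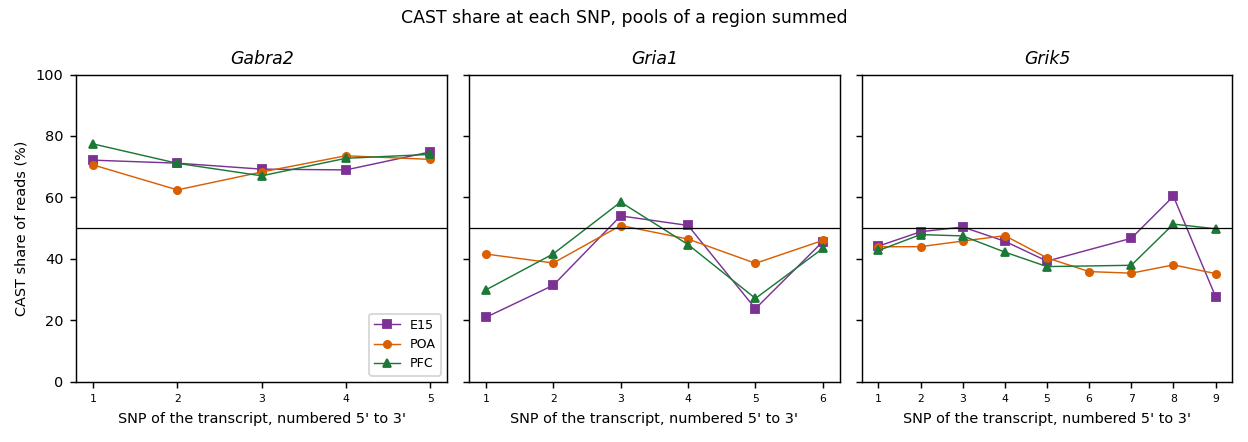
CAST share at each SNP of Gabra2, Gria1 and Grik5, with the pools of a tissue summed and SNPs numbered from the 5′ end of the transcript. Gabra2 lies above 50% at all 5 SNPs in every tissue, while SNPs of Gria1 and Grik5 have unequal shares.

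Calls were also made for other members. In PFC, Gabra5 (0.37 ± 0.06) and Gria2 (0.23 ± 0.06) leaned to CAST and Grm5 (-0.46 ± 0.13) and Grm3 (-0.37 ± 0.09) to B6. Gria2 was not called without the F1i female or F1r female pool (adjusted p 0.0849 to 0.0945), nor Grm5 without the F1i male or F1r male pool (0.0524 to 0.062). Gabra5 had 51.9% and 53.0% CAST in F1i and 59.8% and 60.7% in F1r, and on its deepest SNP alone it turned to -0.030 (adjusted p 0.867). In POA, Grin2d (0.47 ± 0.16) and Gabrg1 (0.28 ± 0.10) leaned to CAST and Grm3 (-0.46 ± 0.11), Glrb (-0.40 ± 0.07) and Gabrb2 (-0.33 ± 0.04) to B6. Grin2d lost its call without the F1i female, F1i male or F1r female pool (0.168 to 0.691), Gabrg1 without any single pool (0.104 to 0.161; -0.20 on its deepest SNP alone, adjusted p 0.488) and Grm3 without F1i male (0.0638). The Grin2d share was 48.1%, 50%, 73.3% and 55.0%, so the F1r female pool stood apart, and the ratio was 0.11 without it. On the deepest SNP alone Grin2d was at 1.05 and Grm3 at -1.06, and without that SNP Grin2d was at 0.18 (adjusted p 0.457). Gabrb2 was even across pools, at 44.6%, 44.4%, 43.4% and 44.8%, but its deepest SNP alone gave 0.028. In E15, Grin2b leaned to B6 with 40.0% and 41.9% (-0.53 ± 0.11, adjusted p 0.031). That call was not made by DESeq2, on SNPs at least 36 bases apart, with offsets at the genome-wide CAST share or on the deepest SNP alone (-0.53 to -0.036, adjusted p 0.0722 to 0.949).

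The members' share on 1 side of 50% in every pool of a tissue was counted as well, without a test. In POA 2 of 37 members lay above 50% in all 4 pools and 10 below, against 15.9% and 24.3% of all genes. In PFC 6 of 36 lay above and 12 below, against 15.4% and 30.5%. In E15, where there are 2 pools, 11 of 35 lay above and 14 below, against 25.4% and 44.0%.

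The difference in strain bias was itself tested between tissues. Between POA and PFC 5 of 36 members were called (1 with a higher CAST share in POA and 4 in PFC, over all genes 10.9%, 6.85% and 4.06%), among them Glrb (-0.37 ± 0.10), Grik5 (-0.34 ± 0.10), Gabrb2 (-0.22 ± 0.06) and Grik4 (0.53 ± 0.17). Between E15 and the mean of both adult regions 4 of 36 were called (2 in each direction, over all genes 11.1%, 4.29% and 6.77%), among them Grik5 (0.34 ± 0.09). In the test with age the spread came from the adult pools alone, and no E15 pool was left out in turn. None of the 9 calls in these 2 tests held in every alternative run. The call for Glrb was lost without the PFC F1r male or POA F1r female pool (0.0626 to 0.118), that for Gabrb2 without any of 4 pools (0.0567 to 0.0726, PFC F1i female and POA F1i female, F1i male and F1r female), that for Grik4 without any of 5 (0.0907 to 0.279, all but PFC F1r female and POA F1i male and F1r female) and that for Grik5 without any of 4 (0.0614 to 0.166, PFC F1i female and F1r female, POA F1i female and F1r male). On the deepest SNP alone Grik5 was at -0.96 and Gabrb2 turned to 0.22. With the POA and PFC pools of the same cross and sex as pairs, 4 members were called, and Grik4 was not (0.51, adjusted p 0.0649). With age, the Grik5 call was lost without POA F1i female (0.0575), by DESeq2, on SNPs at least 36 bases apart, on the deepest SNP alone and without the deepest SNP (0.19 to 0.35, adjusted p 0.0563 to 0.627).

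A parental effect would put the maternal share above 50% in F1i and F1r alike, or below it in both, where the maternal allele is CAST in F1i and B6 in F1r. No receptor gene was called in any tissue, at 0 of 35 in E15, 0 of 37 in POA and 0 of 36 in PFC, against 4.85%, 1.14% and 0.445% of all genes. Unadjusted, 6, 3 and 2 members had a p under 0.05, and DESeq2 called 0 in POA and 0 in PFC. Gabra5 and Gabrg3 lie on chromosome 7 near an imprinted region. The parental values given here are the log2 CAST to B6 ratio in F1i minus that in F1r. Each is the sum, and not the mean, of the log2 maternal to paternal ratios of both crosses. For Gabra5 this value was -0.15 in E15 (Fisher's exact test), -0.32 ± 0.23 in POA and -0.46 ± 0.13 in PFC. The PFC value had the smallest p among members there (edgeR, adjusted p 0.277), from maternal shares of 51.9%, 53.0%, 40.2% and 39.3%. Gabrg3 had too few reads for a narrow estimate, from 14 to 58 per pool, at -0.68, -0.57 and 0.52. In POA the smallest p belonged to Grin2d at -1.07 ± 0.31 (adjusted p 0.153), from 48.1%, 50%, 26.7% and 45.0%, and it was called without the F1r male pool at -1.52.

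The E15 brains of the pure strains gave 1 value each and no test. Gabra2 had 140 RPM (here without TMM scaling) in CAST brain and 30.6 in B6 brain, a log2 ratio of 2.19 beside 1.24 for the alleles in the F1. Gria1 (-0.21 beside -0.49), Grik1 (-0.54 beside -0.45) and Grin2b (-0.14 beside -0.53) were lower in CAST by both measures. Of 33 members with at least 20 reads in each pure strain, 23 had the same sign between strains as between alleles, against 68.2% of 11107 genes. On the deepest SNP alone it was 12 of 26, for which no share over all genes is given. Bases of the absent strain made up a median of 0.521% of reads over the members and at most 1.61%. These counts are the ones given with the SNP calls, so the low share may follow from how SNPs were chosen.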

How the data were processed

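Polyadenylated RNA was sequenced from 32 libraries, of which 24 make up the 10 F1 pools. Alignment used Novoalign and mm9, per the submitters' processing notes. The authors deposited counts, the number of reads with the CAST or the B6 base at each SNP, with technical replicates summed. The counting strand is not given in the sources used here. Each listed SNP was read in all pools of its region, and the SNP sets differ between tables. SNPs within 36 bases can count a read more than once.

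Repeated listings were dropped and reads summed over the transcript with most reads per gene. Members and lists were chosen with earlier results of these data known, and a list is described by its counts and median, with no test. Levels (RPM) were scaled by TMM. edgeR 4.0.16 in R 4.3.3 fitted total reads (filterByExpr, with cross as covariate, and sex also in the fit of the adult pools alone). It also fitted allele counts (pool as a block, genes with a mean of at least 20 reads per pool). Benjamini-Hochberg adjustment was over all genes tested, with calls at an adjusted p under 0.05. E15 parental bias used Fisher's exact test over counting error. DESeq2 1.42.0, upper quartile scaling, other SNP sets, omitted pools and a paired fit of the adult pools were the alternatives. The fits were tested on simulated data. Of 2-fold changes, 95.5% were recovered for POA against PFC over 12080 genes, 90% for the POA strain bias over 11490 and 53.8% for the E15 strain bias over 14160. The simulated counts had the same dispersion for every gene, with changes only in genes with a mean of at least 20 reads. Recovery in the real pools, whose spread differs by gene, was not measured. SNPs were placed on NCBIM37 (mm9) with GENCODE vM1, 393 of 453 for the 39 members. Adult parental libraries were not used. Members were named by size of change among those called, with every member called for strain bias, Gabra5, Gabrg3 and the smallest p for parental bias. Some members are counted but not reported by name here. Depth is given with the results as the range over the pools of each tissue, and intervals cover counting error only.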

Additional observations from a re-analysis of the deposited data

Results flagged for a closer look

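Among 126 groups of 4 adult pools checked for a lone pool (Dixon's test at 95%, which marks about 1 group in 20 by chance), 11 had a pool set apart. For levels in RPM these were Gabbr1 at 924 in POA F1r male (nearest 840), Gabrb1 at 43.3 in PFC F1i female (26.1), Gabrb2 at 441 in POA F1i female (490), Grik3 at 67.0 in POA F1r male (91.9) and Grm2 at 39.6 in PFC F1i male (57.7). For the CAST share these were Gabra2 at 59.9% in POA F1r female (nearest 70.5%), Gabrb2 at 48.8% in PFC F1i female (47.7%), Grik4 at 44.3% in PFC F1r female (32.8%), Grin2b at 50.6% in PFC F1i male (48.1%), Grm7 at 45.4% in PFC F1i male (51.5%) and Grm8 at 42.9% in POA F1r female (60.0%).

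The strain bias differed between tissues by the edgeR test of the difference for 5 gene and contrast pairs given here, as log2 of CAST to B6. Between POA and PFC they were Gabrb2 (-0.22, adjusted p 0.02), Glrb (-0.37, 0.0136), Grik4 (0.53, 0.0449) and Grik5 (-0.34, 0.0262). Between E15 and adult Grik5 differed (0.34, 0.0125), with the spread taken from the adult pools alone.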

How the results depend on the processing

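Of 1775 gene values recomputed under an alternative, 1571 kept their direction and side of the threshold, 192 lost a call, 3 gained one and 9 turned direction. Nearly all of these values belonged to results called in the main fits, so few could gain a call. With only the deepest SNP counted, the strain bias turned to 0.062 for Gria1 in E15, -0.030 for Gabra5, 0.038 for Grik3 and 0.081 for Grik5 in PFC, and 0.073 for Gabbr2, 0.028 for Gabrb2 and -0.20 for Gabrg1 in POA, and the POA to PFC difference of Gabrb2 to 0.22. On SNPs of all 3 tables Grin2d turned to 0.20 for E15 against POA. The cause was not tested.

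The number of members called for strain bias in POA (13) was 4 by DESeq2, 6 on the deepest SNP and 7 to 9 with a pool left out. In PFC (12) it was 7 by DESeq2 and 8 to 11 with a pool left out. In E15 (5) it was 13 in a fit of all 10 pools, whose spread came from the adult pools alone. It was 2 by DESeq2, 2 on the deepest SNP and 2 on SNPs at least 36 bases apart. It was 3 with offsets at the genome-wide CAST share and 3 without the deepest SNP. Counted as both pools on the same side of 50% it was 25. For POA against PFC (5) it was 1 by DESeq2, 2 without the deepest SNP and 2 to 5 with a pool left out, and for E15 against adult (4) it was 0 by DESeq2, 7 on the deepest SNP and 2 to 3 with a pool left out. For parental bias (0 in each tissue) 1 member, Grik2, was called in E15 at a minimum of 50 reads, and in POA 2 on the deepest SNP, 1 on SNPs at least 36 bases apart and 0 to 2 with a pool left out. Members of the same sign in the pure strains fell from 23 to 12 on the deepest SNP, of fewer members. Without the deepest SNP was chosen after seeing the data, as was the count by side of 50%.

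Over all genes, DESeq2 called 674 for strain bias in POA (edgeR 3311), 1682 in PFC (3962), 531 in E15 (1523), 349 for POA against PFC (1229), 69 for E15 against adult (1314) and 58 for parental bias in POA (131). DESeq2 gave no adjusted p to 1529 of 11266 genes for POA against PFC and 6449 of 11880 for E15 against adult. These 2 counts are therefore not over the same genes as those of edgeR. In E15 the strain count was 3610 over 10 pools, 669 on the deepest SNP, 979 on spaced SNPs and 835 without the deepest SNP, and the parental count (688) was 131, 300 and 446 in the first 3 of these. Without single pools the parental count in POA was 59 to 157. Offsets at the genome-wide CAST share changed the split toward CAST and B6 to 1763 and 1435 in POA (1342 and 1969), 2168 and 1794 in PFC (1285 and 2677) and 980 and 627 in E15 (506 and 1017), and that of the members to 3 and 6, 7 and 5, and 3 and 0. Upper quartile scaling moved the median of all genes to 0.115 for POA against PFC and 0.173 for E15 against PFC, with splits of 4351 higher and 3168 lower, and 4916 and 3618, and members at 11 and 16, and 4 and 21. A paired fit, with the POA and PFC pools of the same cross and sex as a block, was added after seeing the data. It called 28 members (11 higher and 17 lower in POA) and 7594 genes between the regions, and 4 members and 1102 genes for the difference in strain bias, where Grik4 was lost (adjusted p 0.0649). Same-labelled pools share a cross and sex but no labelled animals, and over 12108 genes their deviations from the region means had correlations of -0.016 to 0.19. For POA and PFC pools that differed in cross or sex the correlations were -0.16 to 0.096. Replicate numbers of the libraries could not be used, since the tables sum the technical replicates. The ratio of Grin2a to Grin2b differed between POA and PFC by 0.30 to 0.72 with a pool left out. Low depth limits Gabrg3, Grin2c and Gabrd in E15 and the glycine alpha subunits.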
